A study of Drosophila melanogaster with 21 samples.

Results

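Control Drosophila S2 cells were followed over their time in culture in the 10 arrays whose labels name the interfering RNA GFP, out of 21 arrays in the series. The arrays were chosen by these labels and by no measured value. The series profiled messenger RNA of S2 cells on Affymetrix Drosophila Genome 2 arrays after RNA interference against CoVa, a nuclear gene for a subunit of mitochondrial complex IV, or against GFP, a sequence that the fly genome lacks. The question asked here is which transcripts differed between early and late control cultures, so no CoVa array entered any comparison.

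All 10 control cultures were S2 cells grown in Schneider's medium and transfected with GFP interfering RNA by calcium phosphate, and hours were counted from the start of RNA interference. The 3 experiments, numbered 1, 2 and 3 in the labels, were separate time courses. Experiment 1 gave 1 array at 48 hr and 1 at 168 hr, and experiments 2 and 3 each gave 1 array at 72, 96, 120 and 168 hr. The 168 hr array was compared with the first array of its own experiment, at 48 hr in experiment 1 and at 72 hr in experiments 2 and 3, which makes 3 pairs whose first times differ. Because every array carried GFP interfering RNA, hours in culture and hours since transfection cannot be told apart. The study's methods give a passage every 3 days for an assay whose culture is said to have followed the protocol of the arrays, and how each array time lay to a passage is not given in the sources used here. The replicates are 3 time courses of 1 cell line. The p-values of tests over these courses measure how far the cultures differed in their changes, together with the scatter of single serial arrays. In the fit on hours they also take in the distance of arrays from a line. The test of slopes between experiments 2 and 3 has 1 culture in each. Its p-values measure the scatter of serial arrays about a line within each culture, not a spread between cultures.

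S2 cells are an immortal line from late embryos and behave much like haemocytes, the macrophage-like blood cells of the fly. They secrete basement membrane proteins, take up particles through scavenger receptors, break down the cargo in lysosomes and make antimicrobial peptides through the Imd and Toll pathways. A batch culture draws down the sugars and amino acids of its medium as it grows denser, and cells meet such changes through glycogen and glycolytic enzymes, through insulin and TOR signalling and through stress-induced chaperones.

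Signal intensities ran from 9.60, the lowest value in the table, to 16236, and a probeset was tested when it reached 100 on at least 3 of the 10 arrays, which 9252 of 18769 probesets did. Between 42.7% and 47.9% of probesets reached 100 on an array. Pearson's r between log2 signals, over probesets, lay between 0.853 and 0.995 for the 45 pairs of arrays. The 4 arrays of experiment 2 lay at 0.989 to 0.995 from each other and those of experiment 3 at 0.895 to 0.984. The 72 hr array of experiment 3 stood apart: its upper quartile of signal was 442 where the 96, 120 and 168 hr arrays of that experiment had 490, 537 and 562 and the other 6 arrays 548 to 568, and its r with the 72 hr array of experiment 2 was 0.869. The same r reached 0.917, 0.952 and 0.963 at the 3 later times, so the cultures of experiments 2 and 3 were most alike at the last time. The 18S ribosomal RNA control probes at the 3′ end read 3260, 7425, 11112 and 11793 over the 4 times of experiment 3 and 7885 to 9549 on the other arrays. At the 5′ end they read 3302, 5560, 7697 and 7933 in experiment 3 and 2114 to 4540 on the others. By the 5′ probes the 72 hr array of experiment 3 lay within the range of the other experiments and its 3 later arrays lay above it. The ratios of 3′ to 5′ control probes, a sign of RNA quality, spanned 1.60 to 1.86 for actin over all 10 arrays. For GAPDH they were 1.27 to 1.38 in experiment 3 and 1.39 to 1.57 on the other arrays. For eIF-4a they were 2.96, 2.99, 2.63 and 2.98 in experiment 3 and 2.26 to 2.73 on the others, so these 2 controls set experiment 3 apart. Their part in the results was not tested. The comparison with the first time, the fit on hours and the slope difference were also computed without the 72 hr array of experiment 3. The steps between times were not, and every change of experiment 3 and every count over all 3 experiments rests on it.

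No probeset passed the test between the first time and 168 hr. In limma fits with the experiment as a block and Benjamini-Hochberg adjustment, 0 probesets were called higher and 0 lower (0% of those tested in each direction), and the smallest adjusted p was 0.0889. At an unadjusted p under 0.05, 585 probesets were higher (6.32%) and 579 lower (6.26%). A fit on hours as a number called 0 in either direction too, with a smallest adjusted p of 0.0590 and with 700 higher and 720 lower at an unadjusted p under 0.05. Between neighbouring times of experiments 2 and 3 limma called none, with smallest adjusted p-values of 0.790 from 72 to 96 hr, 0.936 from 96 to 120 hr and 1.00 from 120 to 168 hr, and at an unadjusted p under 0.05 these steps had 265, 173 and 114 probesets higher and 195, 106 and 61 lower. Differences between first time and 168 hr are therefore given below as values, on the scale of log2(signal + 32), which understates the change of low genes.

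The 3 experiments differed in the size of their changes. The log2 change from the first time to 168 hr had a median of -0.05 in experiment 1, -0.00 in experiment 2 and 0.07 in experiment 3, and the middle 90% of probesets lay between -0.58 and 0.51, between -0.31 and 0.41 and between -0.54 and 1.95. In experiment 1, 98 probesets (1.06%) were higher by more than 1 on the log2 scale and 93 (1.01%) lower, in experiment 2 51 (0.551%) were higher and 6 (0.0649%) lower, and in experiment 3 1298 (14%) were higher and 57 (0.616%) lower. Experiment 2, with the narrowest spread, was the one whose arrays also lay closest to each other. Across probesets, which are not independent replicates, the changes had a Pearson r of 0.06 between experiments 1 and 2, 0.06 between 1 and 3 and 0.13 between 2 and 3. Of the 9252 probesets 1386 were higher at 168 hr in all 3 experiments (15%) and 1405 lower in all 3 (15.2%), and 11 were higher by more than 1 in all 3 against 0 lower.

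**Figure D1:**
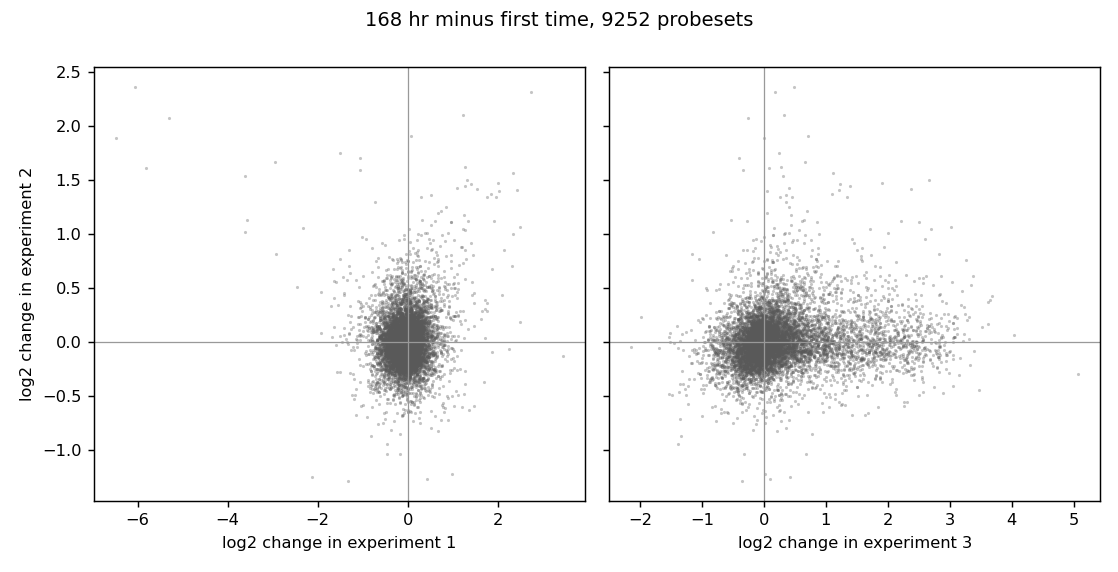
Log2 change from the first time to 168 hr of each probeset tested, with experiment 2 on the vertical axis and experiment 1 (left) or experiment 3 (right) on the horizontal axis, 1 point for each of 9252 probesets. Points reached far to the right in experiment 3, where 1298 lay above 1, at changes near 0 in experiment 2, and a few points at the upper left were low late in experiment 1 and high late in experiment 2.

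Enzymes and carriers of the lysosome were among the genes that stood higher late in every experiment. LManII encodes a lysosomal alpha-mannosidase, which trims mannose from glycoproteins. Its signal was 442 at 48 hr and 1797 at 168 hr in experiment 1, 459, 833, 830 and 1217 at 72, 96, 120 and 168 hr in experiment 2, and 122, 260, 242 and 358 at the same times in experiment 3. In each experiment the first array was the lowest and the 168 hr array the highest, by 4.06-fold, 2.65-fold and 2.94-fold, although the whole course of experiment 3 lay under the first arrays of the others. Below, values are given in this order, the 2 arrays of experiment 1, then the 4 of experiment 2, then the 4 of experiment 3, unless another is named. The log2 change of LManII over the 3 pairs was 1.54, with a limma adjusted p of 0.0889 and an SE of 0.13. This SE and those below come from fits that include the arrays between. CG7997, an alpha-galactosidase, read 318 and 679 in experiment 1, 307, 544, 506 and 622 in experiment 2, then 400, 602, 651 and 698 in experiment 3, so that all 3 first arrays lay below all later ones (log2 change 0.91, SE 0.08, limma adjusted p = 0.0960). Npc2a, whose product binds sterols in the lysosome, read 926 and 2287, then 1378, 2037, 1883 and 2516, then 918, 1240, 1273 and 1586 (log2 change 0.97, SE 0.11, limma adjusted p = 0.103). The first arrays of this gene overlapped with later ones only across experiments, since the 72 hr value of experiment 2 lay above the 96 and 120 hr values of experiment 3.

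The neighbouring mannosidase gene LManI was chosen after its values were seen, to set beside LManII. LManI read 106 and 534 in experiment 1 and 104, 206, 238 and 328 in experiment 2, which is 5.02-fold and 3.16-fold, but 9.60, 33.6, 17.8 and 11.2 in experiment 3. It stayed below 100 on all 4 arrays of that experiment. Over the lysosome as a whole the changes were near 0. Of 29 tested members of a list of proton pump and lysosomal genes, 8 were higher in all 3 experiments and 3 lower, against 15% and 15.2% of all probesets tested, and after quantile normalization 5 and 4, against 9.89% and 19.1%. At an unadjusted p under 0.05 3 were higher and 1 lower, against 6.32% and 6.26%, and the list's median changes were 0.02, 0.06 and 0.02, the last of which became -0.11 after quantile normalization and -0.05 with a common median. The pump subunit Vha16-1 read 8432 and 9697, 9626, 9653, 9966 and 9407, and 3386, 5102, 8864 and 9112, with its low values at 72 and 96 hr of experiment 3.

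Several genes of sugar use also stood higher at 168 hr in each experiment, none past the threshold. Glyp, glycogen phosphorylase, which frees glucose units from glycogen, read 195 and 464 in experiment 1, 219, 297, 295 and 380 in experiment 2, then 181, 245, 253 and 370 in experiment 3. Its 3 first arrays lay below all 7 later ones (log2 change 0.92, SE 0.10, limma adjusted p = 0.103). Pfk, phosphofructokinase, the committed step of glycolysis, read 171 and 323, 174, 226, 248 and 280, and 204, 246, 255 and 369, again with no overlap between first and later arrays, at 1.89-fold, 1.61-fold and 1.81-fold (log2 change 0.72, SE 0.09, limma adjusted p = 0.107). Tpi, triose phosphate isomerase, read 2179 and 3216, 2157, 2911, 2757 and 3034, and 2254, 2846, 2691 and 3284 (log2 change 0.53, SE 0.07, limma adjusted p = 0.136). AGBE, the glycogen branching enzyme, read 776 and 1143, 841, 1030, 1106 and 1182, and 907, 1048, 969 and 1088 (log2 change 0.42, SE 0.09, limma adjusted p = 0.249).

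Of 9 tested glycolysis genes 7 were higher at 168 hr in all 3 experiments and 0 lower, against 15% and 15.2% of all probesets tested. At an unadjusted p under 0.05, 5 were higher, against 6.32%. The listed genes Gapdh2, Pyk and Ldh were not matched to a probeset in the annotation and are not counted. ImpL3, the probeset of Ldh, was lower late in experiment 1 and higher late in experiments 2 and 3, with values given below. After quantile normalization 3 of the 9 were higher in all 3 experiments, against 9.89% of all probesets. The list's median changes were 0.22, 0.14 and 0.33 and stayed above 0 under both other scalings. Hex-A, hexokinase, was not among the 7 higher in all 3 experiments. It read 1078 and 1196 in experiment 1, 1282, 1236, 1126 and 1169 in experiment 2, then 521, 711, 1129 and 1430 in experiment 3. Its 168 hr value lay below its 72 hr value in experiment 2. Glycogen and trehalose genes had 3 of 8 tested members higher in all 3 experiments and 0 lower, against 15% and 15.2% of all probesets tested. The counts were 2 and 2 after quantile normalization, against 9.89% and 19.1%, and 3 and 2 with a common median, against 14.1% and 15.6%. The list's medians were 0.41, 0.16 and 0.11, the last of which became -0.09 after quantile normalization. Of the 8 members 6, 7 and 4 were higher at 168 hr in experiments 1, 2 and 3. The trehalose transporter Tret1-1 read 155 and 41.1 in experiment 1, 64.1, 83.8, 90.7 and 64.3 in experiment 2, then 157, 164, 169 and 148 in experiment 3.

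A list of glutamate and proline genes gave 6 of 12 tested members higher in all 3 experiments and 0 lower, against 15% and 15.2% of all probesets tested. At an unadjusted p under 0.05, 5 were higher, against 6.32%. The medians of 0.19, 0.11 and 0.29 kept their sign under both other scalings. Gdh, glutamate dehydrogenase, read 2300 and 3081, 2318, 2870, 2852 and 3314, and 2087, 2860, 3150 and 3059, with the first array the lowest of each experiment (log2 change 0.49, SE 0.08, limma adjusted p = 0.204). Men, a malic enzyme, read 925 and 1253, 835, 970, 1177 and 1120, and 772, 876, 871 and 989 (log2 change 0.39, SE 0.09, limma adjusted p = 0.262). Pepck1, phosphoenolpyruvate carboxykinase, was lower late in experiments 1 and 2, at 325 and 94.3 and at 284, 248, 146 and 229, and read 182, 189, 155 and 189 in experiment 3.

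**Figure D2:**
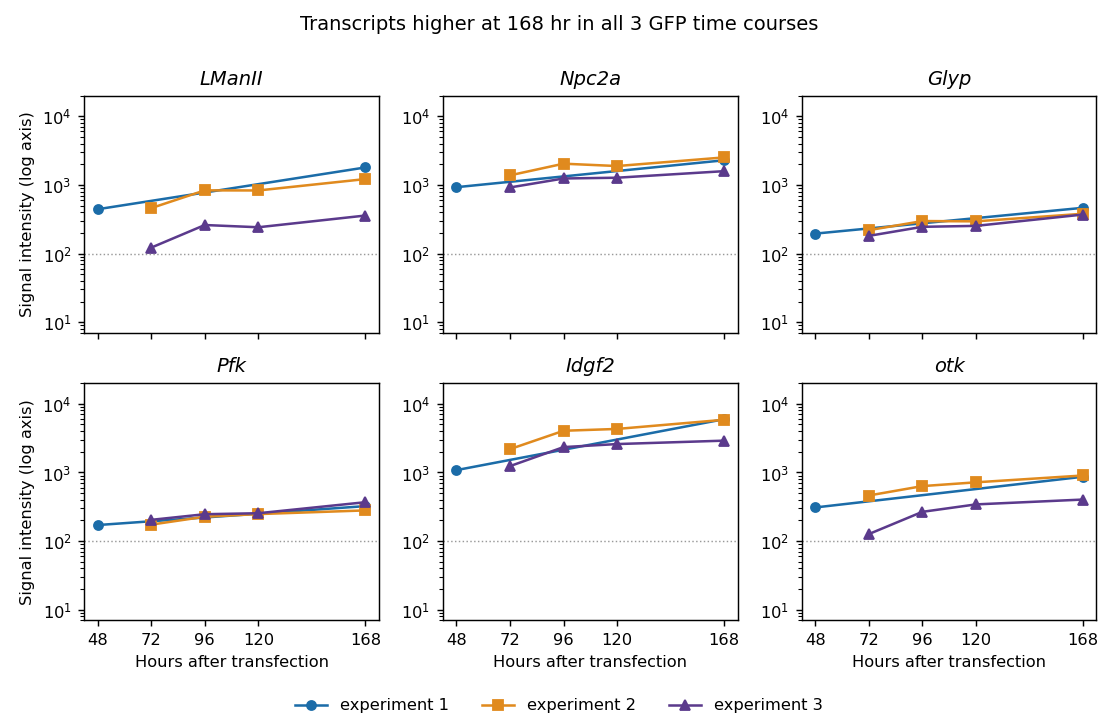
Signal intensity on a log axis against hours after transfection for LManII, Npc2a, Glyp, Pfk, Idgf2 and otk, with 1 line for each experiment, 1 point for each array and a dotted line at a signal of 100. In each panel the 168 hr point lay above the first point of its own experiment, as for Glyp at 195 and 464, 219 and 380, and 181 and 370.

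Among cell surface and transport genes, otk, which encodes a receptor of the PTK7 family, read 309 and 866 in experiment 1, 461, 633, 718 and 903 in experiment 2, then 126, 267, 342 and 403 in experiment 3, with each array above the one before it (log2 change 1.26, SE 0.14, limma adjusted p = 0.103). Zip71B, a zinc transporter gene, was under 100 on every first array, at 85.2, 55.7 and 70.0, and read 252, 206 and 236 at 168 hr, at least 2.52-fold, 2.06-fold and 2.36-fold higher when taken against 100. Late values in the 3 experiments lay close together for this gene. The secreted growth factor gene miple2, of the midkine and pleiotrophin family, read 872 and 1547, 1028, 1242, 1262 and 1646, and 618, 826, 979 and 1102 (log2 change 0.76, SE 0.09, limma adjusted p = 0.103).

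The uncharacterized gene CG15209 had the smallest p of the 10, reading 2223 and 4000, 2215, 3518, 3689 and 3872, and 1376, 2244, 2407 and 2356 (log2 change 0.80, SE 0.06, limma adjusted p = 0.0889). Its 96 hr value was already close to the 168 hr value in both experiments with that time. CG15478 read 1163 and 1893, 1312, 1724, 1721 and 1882, and 1187, 1621, 1669 and 1983, and slow, the last of the 10 genes named by smallest p, was under 100 on all first arrays, at 28.0, 50.6 and 30.4, and read 142, 189 and 290 at 168 hr. None of these 10 genes passed the threshold. For 9 of the 10, the mean log2 step from 72 to 96 hr (0.33 to 0.87) was the largest of the 3 steps, and the median steps over the 10 were 0.66, 0.05 and 0.27. The genes were chosen by a change that includes the 72 hr arrays, so the size of this first step is a description only.

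Secreted and immune genes were chosen after their values were seen, from those higher in all 3 experiments. Idgf2, a chitinase-like growth factor secreted by haemocytes, read 1081 and 5974 in experiment 1, 2186, 4048, 4305 and 5855 in experiment 2, then 1237, 2341, 2592 and 2907 in experiment 3, with each array above the one before it, at 5.52-fold, 2.68-fold and 2.35-fold overall (log2 change 1.68, SE 0.23, limma adjusted p = 0.156). Its relative Idgf1 read 115 and 703, 296, 408, 264 and 504, and 180, 294, 203 and 437, dipping at 120 hr in both experiments with that time. Signals of these relatives may share transcripts on the array, and this was not tested.

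DptB, a diptericin antimicrobial peptide, read 39.5 and 369 in experiment 1, 135, 213, 142 and 319 in experiment 2, then 9.60, 13.2, 9.60 and 306 in experiment 3, where only the 168 hr array passed 100 (log2 change 2.19, SE 0.45, limma adjusted p = 0.247). A 168 hr value well above the earlier ones in experiment 3 was also seen for edin, an infection-induced secreted protein, with 61.1, 98.0, 95.4 and 574, beside 109 and 296 in experiment 1 and 157, 223, 237 and 358 in experiment 2. Sid, a stress-induced DNase, read 137 and 826, 201, 351, 336 and 658, and 58.3, 115, 91.6 and 164. CecB, the other antimicrobial peptide gene tested, was flat in experiments 1 and 2, at 219 and 222 and at 222, 187, 184 and 215, and read 66.3, 58.0, 63.2 and 244 in experiment 3, so both peptide genes were highest in that experiment at 168 hr.

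The Imd and Toll pathway genes upstream of the peptides had 6 of 21 tested members higher in all 3 experiments and 2 lower. The shares of all probesets tested were 15% and 15.2%. After quantile normalization the counts were 4 and 3, against 9.89% and 19.1%. The medians were -0.06, 0.08 and 0.29, the first of which became 0.01 with a common median and the last -0.05 after quantile normalization. GNBP3, a recognition protein of the Toll pathway, read 981 and 1548, 1317, 1637, 1741 and 1677, and 746, 1085, 1050 and 1136 (log2 change 0.52, SE 0.08, limma adjusted p = 0.200). The ligand gene spz and its receptor gene Tl differed most over time in experiment 3, spz at 1270, 2854, 5205 and 5443 and Tl at 202, 513, 938 and 967 over the 4 times. Experiment 1 read 5932 and 6184 for spz and 1179 and 1225 for Tl. In experiment 2 both were also higher late, spz at 4562, 4749, 6173 and 6017 and Tl at 951, 1011, 1231 and 1344.

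The phagocytic receptor gene drpr, whose product takes up dying cells, read 909 and 1546 in experiment 1, 514, 787, 1240 and 1240 in experiment 2, then 227, 344, 480 and 386 in experiment 3 (log2 change 0.88, SE 0.12, limma adjusted p = 0.156). Each first array was the lowest of its experiment. NimC4, another engulfment receptor gene, read 345 and 492, 673, 741, 667 and 781, and 376, 479, 495 and 496, and the receptor gene eater read 322 and 471 in experiment 1, 217, 218, 387 and 496 in experiment 2, then 9.60, 10.5, 30.5 and 24.6 in experiment 3. Thus eater was above 100 in experiments 1 and 2 only, while drpr and NimC4 were above 100 in all 3. These 3 were the members of 7 tested phagocytic and scavenger receptor genes that were higher in all 3 experiments, against 15% of all probesets tested. For eater the change in experiment 3 lay wholly under 100 and is not a measured one. The list's medians were 0.13, 0.21 and 0.37, above 0 under both other scalings.

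Haemocyte identity was checked on a list of plasmatocyte markers, plasmatocytes being the macrophage-like haemocytes. The GATA factor srp and its partner ush exceeded 1000 on all 10 arrays, at 1031 to 3069 and 1064 to 1895, whereas NimC1, Hml, Ppn, Sr-CI and He stayed under 100 on every array, so 6 of 11 markers reached 100. The summed signal of the list was 3268 to 8230 on the first arrays and 6196 to 8094 at 168 hr. In such bulk samples fewer cells of a type and less RNA per cell cannot be told apart. Pxn, a peroxidasin of the matrix, read 1950 and 2253, 996, 1282, 1976 and 1955, and 307, 525, 560 and 267. Experiment 3 had the lowest Pxn and eater at every time, and its 72 hr array the lowest srp, at 1031 against 1998, 2920 and 2740 later.

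Basement membrane genes had 5 of 11 tested members higher in all 3 experiments and 2 lower, against 15% and 15.2% of all probesets tested, with medians of 0.02, 0.21 and 0.14, the last of which became -0.09 after quantile normalization. The collagen gene Col4a1 read 154 and 542, 433, 494, 333 and 506, and 323, 408, 409 and 619, and its partner chain vkg read 647 and 651, 449, 551, 643 and 630, and 355, 474, 519 and 633. Markers of other cells were given for comparison. Crystal cell markers had 2 of 5 members reach 100, with lz, PPO1 and peb below it, and summed to 376 to 778 on first arrays and 617 to 874 at 168 hr. Lamellocyte markers, of which 4 of 6 reached 100 and atilla did not, summed to 5083 to 9551 and 8268 to 9657, while fat body markers, 3 of 6 on the array, summed to 339 to 413 and 335 to 432. Neuron markers, 4 of 6 on the array, summed to 675 to 817 and 738 to 857. The part of such cells in the results was not tested.

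Genes lower at 168 hr differed by less. The 10 named by smallest p had log2 changes of -0.61 to -0.31 (SE 0.07 to 0.11) with limma adjusted p-values of 0.180 to 0.260, so none passed. The gene shu, a co-chaperone of the piRNA pathway, read 544 and 383 in experiment 1, 668, 466, 435 and 441 in experiment 2, then 889, 659, 673 and 674 in experiment 3 (log2 change -0.47, SE 0.07, limma adjusted p = 0.180). Its lower level was reached by 96 hr and stayed there. GstE10, a glutathione transferase, read 179 and 128, 168, 107, 108 and 121, and 399, 236, 212 and 254. Also in this set were 3 genes of the endoplasmic reticulum and Golgi. The nucleotide sugar transporter meigo read 3213 and 2246, 2990, 2133, 2490 and 2471, and 2499, 1885, 1988 and 1951. The gene shv, a DnaJ-like protein, read 4611 and 3208, 4170, 2888, 3331 and 3357, and 4583, 3377, 3968 and 3715, and Rint1, part of a tether of vesicles between these organelles, read 516 and 412, 556, 463, 494 and 456, and 576, 469, 463 and 439. The other 5 were dlt, CG12688, CG13049, sel and CG12075, and in 9 of the 10 the step from 72 to 96 hr (-0.61 to -0.24) was the largest. These genes too were chosen by a change that includes the 72 hr arrays.

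Proteasome genes, for protein turnover, had none of their tested members higher late in all 3 experiments. Of 28 tested proteasome genes 0 were higher and 12 lower in all 3 experiments, against 15% and 15.2% of all probesets tested. At an unadjusted p under 0.05, 4 were lower, against 6.26%. The medians were -0.03, -0.20 and -0.18, the first of which became 0.05 after quantile normalization and 0.03 with a common median. After quantile normalization 8 were lower in all 3, against 19.1% of all probesets tested, and with a common median 6, against 15.6%. Rpt2 and Rpn1, subunits of the regulatory cap, show the size: Rpt2 read 2930 and 2828, 3306, 2911, 2753 and 2690, and 4010, 3069, 2787 and 3126 (log2 change -0.23, SE 0.10, limma adjusted p = 0.396), and Rpn1 read 2028 and 1952, 2336, 1811, 1966 and 1968, and 2641, 1982, 1906 and 2021. Most of the difference lay between 72 and 96 hr of experiments 2 and 3, and little was seen in experiment 1. Prosalpha6T, a proteasome subunit variant known from the male germ line, was lower late in experiments 1 and 2, at 409 and 340 and at 407, 285, 296 and 317, and read 192, 261, 390 and 741 in experiment 3.

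Of 30 tRNA synthetase genes 1 was higher and 10 lower in all 3 experiments, against 15% and 15.2% of all probesets tested. After quantile normalization 12 were lower, against 19.1% of all probesets tested, and with a common median 7, against 15.6%. The medians were -0.06, -0.05 and -0.08, the first of which became 0.01 with a common median. Of 20 genes of the endoplasmic reticulum stress response and secretion 0 were higher and 6 lower in all 3, against 15% and 15.2%. After quantile normalization the counts were 1 and 10, against 9.89% and 19.1%. The medians were -0.12, -0.14 and 0.05, the last of which became -0.18 after quantile normalization and -0.01 with a common median. PEK, the endoplasmic reticulum kinase that slows translation, read 3714 and 2158, 2962, 2394, 2492 and 2536, and 2542, 2396, 2712 and 2610, while Atf6, a stress-activated transcription factor, read 1562 and 1590, 1734, 1831, 1639 and 1730, and 229, 444, 1177 and 1659. Among ATF4 targets and other amino acid stress genes 2 of 12 were higher in all 3 experiments and 0 lower. The first is near the 15% of all probesets tested, and the share lower was 15.2%. After quantile normalization the counts were 2 and 2, against 9.89% and 19.1%. Thor was listed but is not among the 12.

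Respiratory chain genes differed little. Of 23 tested genes of complexes III to V 13 were higher in all 3 experiments and 0 lower, but 3 after quantile normalization and 9 with a common median, and their medians of 0.21, 0.09 and 0.05 became 0.24, 0.05 and -0.15 after quantile normalization, while the last became -0.01 with a common median. Of 27 complex I genes 10 were higher in all 3 and 2 lower, but 0 and 1 after quantile normalization and 4 and 2 with a common median, with medians of 0.26, 0.10 and -0.07. The shares of all probesets tested were 15% higher and 15.2% lower in all 3, 9.89% and 19.1% after quantile normalization, and 14.1% and 15.6% with a common median. COX5A, the current symbol of CoVa, read 7336 and 8413, 8456, 8924, 8855 and 8962, and 7794, 8426, 7534 and 7060, so the gene targeted elsewhere in the series stayed high in every control culture. DNA replication genes gave 15 of 26 tested members higher in all 3 experiments and 0 lower, beside these shares. At an unadjusted p under 0.05, 7 were higher, against 6.32% of all probesets tested. The list's medians were 0.09, 0.21 and 0.18, the last of which became -0.07 after quantile normalization, where 9 were higher in all 3. PolA1, the catalytic subunit of primase-polymerase alpha, read 591 and 763, 616, 655, 732 and 720, and 324, 516, 505 and 577, and PolE1, that of polymerase epsilon, read 732 and 988, 778, 914, 1003 and 890, and 650, 827, 737 and 831. Cytosolic ribosomal protein genes had 19 of 38 tested members higher in all 3 and 3 lower, but 5 higher and 11 lower after quantile normalization, with medians of 0.10, 0.01 and 0.05 that became -0.01, -0.01 and -0.04, and the last 2 of which became -0.01 and -0.02 with a common median. Quantile normalization moved the median change of all probesets tested in experiment 3 from 0.07 to -0.18, so changes of lists in that experiment are to be read against that shift.

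**Figure D3:**
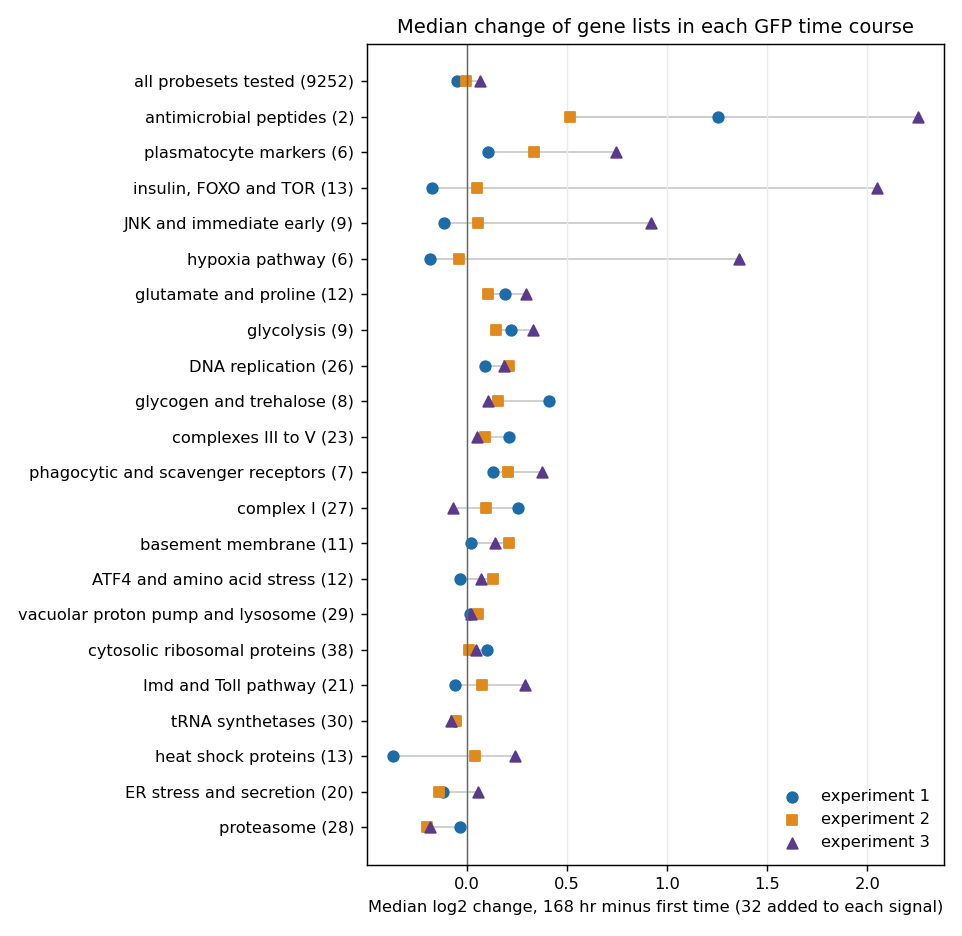
Median log2 change from the first time to 168 hr of each gene list described, with 1 point for each experiment, and a vertical line at 0 (number of genes tested in brackets). Insulin, hypoxia and JNK lists had medians of 2.05, 1.36 and 0.92 in experiment 3 and between -0.19 and 0.06 in the others. For 11 of the 21 lists the median takes the other sign in at least 1 experiment under another scaling. These include medians away from 0, such as Imd and Toll genes in experiment 3, at 0.29 and at -0.05 after quantile normalization.

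The heat shock genes Hsp26, Hsp27 and Hsp68 were lower late in experiment 1 and higher late in experiment 2. The small heat shock protein gene Hsp26 read 11927 at 48 hr and 103 at 168 hr in experiment 1, 116-fold lower, and 1320, 5538, 4451 and 4972 in experiment 2, 3.77-fold higher at 168 hr. In experiment 3 it stayed at 9.60, 9.60, 22.1 and 9.60, below 100 throughout. Hsp27, its neighbour in function, read 7976 and 88.6 in experiment 1, at least 79.8-fold lower when taken against 100, 530, 2884, 2027 and 2862 in experiment 2, 5.40-fold higher, and 46.2, 30.9, 80.8 and 78.0 in experiment 3. Hsp68, an inducible member of the Hsp70 family, read 10485 and 832, 12.6-fold lower, 2414, 6725, 6222 and 7083, 2.93-fold higher, and 329, 243, 265 and 413. The 3 genes thus ranked the arrays alike, with the 48 hr array of experiment 1 highest, then the 4 arrays of experiment 2, then the 168 hr array of experiment 1, and the 4 arrays of experiment 3 lowest. For Hsp27 the 168 hr array of experiment 1 and those of experiment 3 were all below 100, so their order is not measured. The log2 changes of the 3 genes over the 3 pairs, -1.53 (SE 1.49), -1.07 (SE 1.53) and -0.59 (SE 0.94), had limma adjusted p-values of 0.620, 0.727 and 0.757. Without experiment 1 they were 0.94, 1.43 and 0.92.

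The opposite direction rests on 1 pair in each experiment and on different first times, and the difference was not tested. DnaJ-1, the Hsp40 co-chaperone, and Hsf, the heat shock transcription factor, were chosen after their values were seen to follow this course. DnaJ-1 read 9796 and 4617 in experiment 1, 5737, 7986, 7555 and 8189 in experiment 2, then 2933, 2901, 4343 and 4538 in experiment 3. Hsf varied less, at 3075 and 2053, 2156, 2317, 2438 and 2594, and 1690, 1920, 2160 and 2038. Of the 13 heat shock genes tested 1 was higher and 3 lower in all 3 experiments, against 15% and 15.2% of all probesets tested. In experiment 1, 1 of the 13 was higher at 168 hr, beside 4068 of all 9252 probesets tested. The list's medians were -0.37, 0.04 and 0.24. The median of experiment 3 was 0 after quantile normalization.

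**Figure D4:**
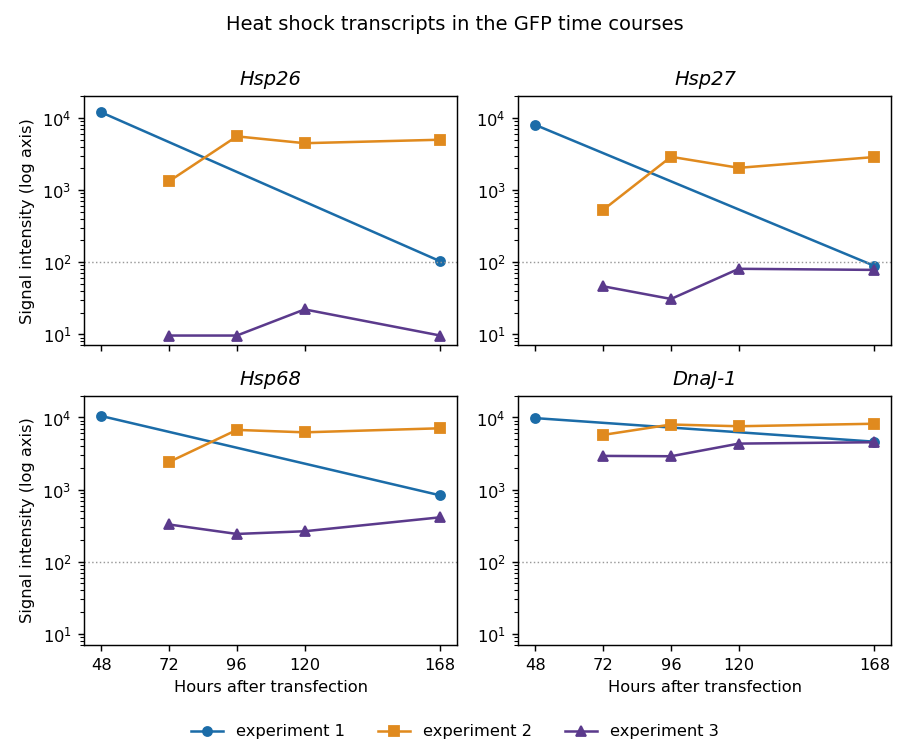
Signal intensity on a log axis against hours after transfection for Hsp26, Hsp27, Hsp68 and DnaJ-1, with 1 line for each experiment, 1 point for each array and a dotted line at a signal of 100. Experiment 1 ran downward, from 11927 to 103 for Hsp26, experiment 2 ran upward, from 1320 to 4972, and experiment 3 stayed lowest at 72, 96 and 120 hr in each panel.

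A few metabolic and stress genes also had a higher 48 hr than 168 hr value in experiment 1. ImpL3, lactate dehydrogenase, read 291 and 9.60 in experiment 1, at least 2.91-fold lower when taken against 100, 34.6, 104, 93.7 and 180 in experiment 2, then 373, 247, 282 and 611 in experiment 3. Unlike the heat shock genes it was highest in experiment 3. Chosen after their values were seen, Thor, the translation repressor 4E-BP and a target of FOXO and ATF4, read 2029 and 380, 447, 818, 525 and 966, and 292, 263, 306 and 331, and AsnS, asparagine synthetase, read 2796 and 868, 845, 1501, 1004 and 1371, and 1102, 1106, 1004 and 932. Both had a higher 96 and 168 hr value than 72 and 120 hr value in experiment 2. The largest increase in experiment 1 belonged to Bdp1, a subunit of the RNA polymerase III factor TFIIIB, chosen after its values were seen: it read 24.3 on the 48 hr array and 581 to 778 on the other 9 arrays.

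Experiment 3 differed from experiment 2 in its course. The test of this compared 1 culture with 1 culture, so its p-values measure the scatter of arrays about a line within each. In the limma interaction of experiment and hours, 318 probesets had a steeper increase (or a weaker decrease) in experiment 3 (3.44% of those tested) and 62 a slope lower than in experiment 2 (0.67%) at an adjusted p under 0.05. After quantile normalization these counts were 514 and 357, so the share of higher calls depended on the scaling. Leaving out any one of the 8 arrays moved both counts by over 1.5 times: without the 72 hr array of experiment 3 they were 94 and 6, without its 96, 120 or 168 hr array 132 and 6, 1262 and 187, and 1784 and 137, and without the 72, 96, 120 or 168 hr array of experiment 2 40 and 2, 134 and 12, 103 and 9, and 0 and 0. In experiment 3 the 1298 probesets that were higher by more than 1 at 168 hr had a median signal of 171, 314, 565 and 726 over the 4 times, while in experiment 2 the same probesets had medians of 708 at 72 hr and 731 at 168 hr and in experiment 1 of 776 and 712. These probesets were chosen by their change in experiment 3, so their medians there are a description. Of the 1298, 440 were under 100 on the 72 hr array of experiment 3, and 1097 were higher at each time than at the time before.

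The gap between the experiments closed with time. At 72 hr 500 probesets were more than 2-fold higher in experiment 3 than in experiment 2 and 1323 more than 2-fold lower. At 96 hr these numbers were 632 and 701, at 120 hr 325 and 236, and at 168 hr 254 and 102. The 18S control probes and the upper quartile of signal, given above, moved over the same 4 arrays, and their part in the result was not tested.

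The 5 steepest of the genes called higher were Syp, spen, Tsp96F, CG3638 and aqz. Syp, an RNA-binding protein of the Syncrip family, read 36.7, 133, 156 and 1093 in experiment 3, 1783, 1504, 1688 and 1874 in experiment 2, then 1876 and 2392 in experiment 1. Its slope was 0.93 log2 units per 24 hr higher in experiment 3 (SE 0.12, limma adjusted p = 0.0137), and at 168 hr the signal was still below those of the other experiments. As for all genes named for this difference, the call was lost without the 168 hr array of experiment 2, where limma called none and 930 were higher and 355 lower at an unadjusted p under 0.05. For spen, a large RNA-binding regulator of transcription, the values were 130, 281, 542 and 1596, 1651, 1336, 1555 and 1419, and 1935 and 1764 in the same order, with a slope difference of 0.86 (SE 0.06, limma adjusted p = 0.00200). Here the late values of the 3 experiments overlapped in range. The gene aqz read 179, 334, 621 and 2562, 2464, 2309, 2886 and 3207, and 3598 and 2984 (slope difference 0.80, SE 0.05, limma adjusted p = 0.00200).

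A tetraspanin gene, Tsp96F, read 217, 395, 1106 and 1814 in experiment 3 and 1652, 1169, 1232 and 1179 in experiment 2 (slope difference 0.83, SE 0.13, limma adjusted p = 0.0272), and CG3638 read 183, 354, 1100 and 1609 against 1552, 1599, 1534 and 1300 (slope difference 0.82, SE 0.15, limma adjusted p = 0.0386). Both ended above experiment 2. Chosen after their values were seen, the translational repressor gene pum read 114, 277, 618 and 1176 in experiment 3 against 1356, 1434, 1277 and 1356 (slope difference 0.76, SE 0.10, limma adjusted p = 0.0164), and the transcription factor gene chinmo 106, 232, 280 and 894 against 1151, 1176, 1341 and 1240 (slope difference 0.63, SE 0.07, limma adjusted p = 0.00890). The transcription factor gene zfh1, chosen likewise, read 194, 481, 1393 and 2064 against 2502, 2518, 2723 and 2528, with a slope difference of 0.80 (SE 0.16) that did not pass (limma adjusted p = 0.0521).

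Growth and nutrient signalling genes were also low early in experiment 3. Of 13 tested insulin, FOXO and TOR genes, 9 were higher by more than 1 on the log2 scale at 168 hr in experiment 3. The share of all probesets tested was 14%. The medians were -0.17, 0.05 and 2.05, with the median of experiment 3 at 1.78 after quantile normalization. Thor was listed but is not among the 13. The transcription factor foxo, which insulin signalling holds out of the nucleus, read 162, 304, 786 and 1014 in experiment 3, 873, 988, 1271 and 1199 in experiment 2, then 1074 and 1149 in experiment 1. S6k, the ribosomal protein kinase downstream of TOR, read 696, 1246, 2971 and 4064, 3297, 3499, 3608 and 3473, and 3952 and 3319, and REPTOR, a transcription factor that TOR restrains, read 272, 565, 1182 and 1535, 1490, 1393, 1470 and 1481, and 1355 and 1694. All 3 were lowest on the 72 hr array of experiment 3, below every array of the other experiments. Their slope differences of 0.50 (SE 0.14), 0.61 (SE 0.13) and 0.58 (SE 0.13) missed the threshold with limma adjusted p-values of 0.0908, 0.0521 and 0.0589, and 1 of the 13 genes passed. This was InR, the insulin receptor gene, named after its values were seen, which read 83.1, 144, 176 and 544 in experiment 3 and 502, 485, 498 and 412 in experiment 2 (slope difference 0.63, SE 0.06, limma adjusted p = 0.00636).

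In the hypoxia list, bnl, the fly FGF ligand that guides tracheal branching, read 72.6, 129, 330 and 663 in experiment 3 against 562, 535, 523 and 516 in experiment 2 and 571 and 509 in experiment 1 (slope difference 0.73, SE 0.08, limma adjusted p = 0.00846). It was at least 6.63-fold higher at 168 hr than at 72 hr in experiment 3 when taken against 100. The HIF-alpha gene sima read 100, 211, 366 and 403 against 535, 579, 523 and 468 (slope difference 0.47, SE 0.12, limma adjusted p = 0.0778), and scyl, a TOR inhibitor induced by low oxygen, read 9.60, 22.0, 21 and 211 against 325, 407, 310 and 338, with 1086 and 317 in experiment 1. Over the 6 genes tested, which leave out the listed gene Ldh, the medians were -0.19, -0.04 and 1.36. Of 9 JNK and immediate early genes 4 were higher by more than 1 in experiment 3, against 14% of all probesets tested, with medians of -0.12, 0.06 and 0.92. Among the 4 were kay, the fly Fos, at 1727, 2878, 5978 and 7136 against 6767, 6430, 7134 and 7035, and puc, the phosphatase that dampens JNK, at 341, 684, 1455 and 1675 against 1835, 1874, 1725 and 1851. None of the 9 passed the test of the slope difference. Hex-A, Atf6 and Prosalpha6T, whose values are above, did pass, with slope differences of 0.39, 0.69 and 0.51 and limma adjusted p-values of 0.0336, 0.0479 and 0.0155.

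**Figure D5:**
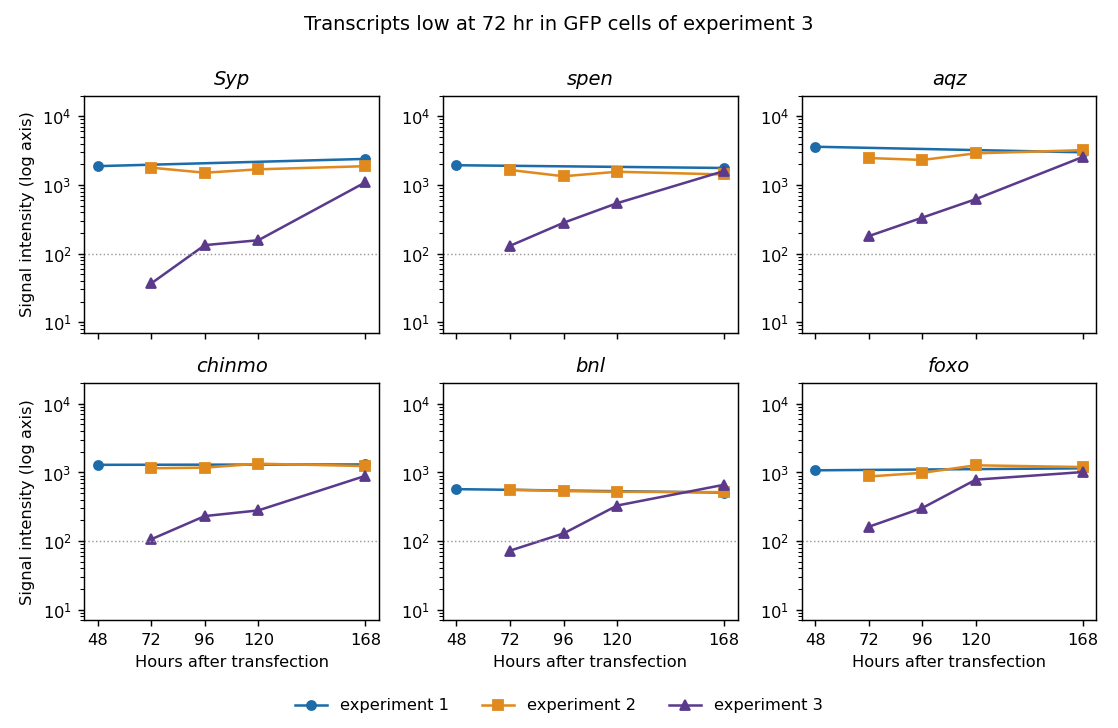
Signal intensity on a log axis against hours after transfection for Syp, spen, aqz, chinmo, bnl and foxo, with 1 line for each experiment, 1 point for each array and a dotted line at a signal of 100. Experiment 3 climbed from its 72 hr value, 130 to 1596 for spen, while experiment 2 stayed level, 1651 to 1419, and by 168 hr the lines had drawn together.

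The 5 steepest of the genes called lower were CG18180, Ect3, grh, cato and lectin-46Cb. CG18180, a predicted serine protease, read 310, 209, 127 and 54.7 in experiment 3 and 116, 127, 133 and 142 in experiment 2 (slope difference -0.55, SE 0.04, limma adjusted p = 0.00200). The transcription factor gene grh read 481, 420, 367 and 197 against 129, 89.6, 160 and 208 (slope difference -0.48, SE 0.09, limma adjusted p = 0.0463), so both genes began higher in experiment 3 and ended at or below experiment 2. The proneural gene cato read 224, 170, 123 and 57.0 against 45.2, 43.8, 36.1 and 49.8 (slope difference -0.40, SE 0.05, limma adjusted p = 0.0103), below 100 on every array of experiment 2. For lectin-46Cb, a predicted sugar-binding protein, the values were 440, 329, 192 and 133 in experiment 3 and 9.60, the lowest value of the table, on all 4 arrays of experiment 2, so its slope there was not measured and no size is given to the difference. Ect3, a beta-galactosidase family gene, was the reverse case. It read 85.4, 195, 345 and 553 in experiment 2 and 51.4 and 520 in experiment 1, and stayed at 72.9, 77.8, 64.5 and 86.1 in experiment 3 (slope difference -0.53, SE 0.10, limma adjusted p = 0.0395).

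Pgk and Nup50, which the study also singled out, varied little in control cultures. Pgk, phosphoglycerate kinase, read 2720 and 3179, 2715, 3150, 2946 and 3005, and 2957, 3441, 2939 and 3327 (log2 change 0.18, SE 0.07, limma adjusted p = 0.387). Nup50, a nuclear pore gene, read 1335 and 1121, 1463, 1284, 1210 and 1232, and 1352, 1358, 1324 and 1293 (log2 change -0.18, SE 0.08, limma adjusted p = 0.406). Neither passed the threshold.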

How the data were processed

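The authors scanned Affymetrix Drosophila Genome 2 arrays with GCOS, and by their methods dChip then scaled all signals to a baseline, the array whose overall intensity was the median, while the submitters' processing notes name MAS5. The deposited table holds 1 linear signal intensity per probeset and array, used without further normalization in the fits reported. Of 18952 probesets 183 controls were left out, and of the other 18769 the platform annotation gave 13646 a single gene, 402 several and 4721 none. No probe sequence or gene position was used. No 2 arrays held identical values, the number of arrays limits the precision, and the depth of signal is given by the threshold of 100.

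Probesets were fitted with limma 3.58.1 in R 4.3.3 on log2(signal + 32) with the experiment as a block, as the study tested time by repeated measures, and p-values were adjusted over all 9252 probesets by Benjamini-Hochberg with a threshold of 0.05. The first test compared 168 hr with the first time over all 10 arrays, the second took hours as a number, and further tests took the steps between times and the product of hours and experiment over the 8 arrays of experiments 2 and 3. The experiment numbers pair the arrays: after removal of time means, first and 168 hr arrays of the same experiment correlated at 0.22, 0.34 and 0.49. The fits of 168 hr against the first time and of the slope difference were first checked on simulated arrays. Their noise was drawn from the fitted spreads at or below the median spread, which is less than in the data. The fit on hours and the steps between times were not checked in this way. The members and gene lists were chosen with earlier results of these data known. Of 49 gene lists 21 are described, by counts and medians, and the median changes of the other 28 ran from -0.17 (UDP-glycosyltransferases) to 0.31 (crystal cell markers). Genes named were the 10 higher and 10 lower with the smallest p among probesets of a single gene that differed the same way in all 3 experiments (with a mean signal of at least 200), from each list the 2 to 4 genes that differed most, the 5 steepest in each direction of the slope difference, haemocyte markers and genes the study names, and others said to be chosen after their values were seen. The probesets of ImpL3 and Thor were named from the study's probe table. Their genes, listed as Ldh and Thor, were not matched in the annotation, so no list count or median includes them. Of the list entries 975 were matched to a probeset of a single gene and 112 were not. Alternatives were quantile normalization, scaling to a common median, 16 or 64 added in place of 32, other filters, other variance estimates, no block or a random one (statmod 1.5.0), other arrays or times, and the methods' t-test.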

Additional observations from a re-analysis of the deposited data

Results flagged for a closer look

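The course over hours differed between experiments 3 and 2 by a limma interaction test over 8 arrays, from a single culture in each experiment. The slope was higher in experiment 3 for 318 probesets and lower for 62. The slope difference, in log2 units per 24 hr, was 0.93 for Syp, 0.86 for spen, 0.83 for Tsp96F, 0.82 for CG3638 and 0.80 for aqz, and -0.55 for CG18180, -0.53 for Ect3, -0.48 for grh, -0.40 for cato and -0.39 for lectin-46Cb. The value for lectin-46Cb is set by the lowest value of the table on all arrays of experiment 2 and is no measured difference, and cato was below 100 throughout experiment 2.

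Experiments 1 and 2 differed in direction from the first time to 168 hr for a few genes with 1 pair of arrays in each, and this difference was not tested. The log2 change of experiment 2 minus that of experiment 1 was 8.36 for Hsp26, 8.42 for Hsp27, 5.15 for Hsp68 and 4.63 for ImpL3, with first arrays at 72 hr and 48 hr. The values of Hsp27 and ImpL3 include signals below 100 and depend on the 32 added, so they are not measured sizes.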

How the results depend on the processing

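The comparison of 168 hr with the first time called 0 probesets in either direction under every alternative but 2: limma with a variance trend and robust estimation called 1 higher (CG15209), and the experiment as a random block called 12 higher. Among the 12 were Glyp, Pfk, Tpi, Zip71B, slow, CG7997 and CG15478, and 4 of the 12 were list members. Leaving out an experiment gave 0 to 0. Without the replicate block 0 were called, with 237 higher and 109 lower at an unadjusted p under 0.05, and per 24 hr 0, with 290 and 185. The methods' t-test had 116 higher and 105 lower at its threshold and 0 after Benjamini-Hochberg. The fit per 24 hr called 3 higher and 1 lower among probesets at 100 on all 10 arrays, 10 and 3 with the filter taken over 20 GFP and CoVa arrays, 6 higher with the random block, 12 and 2 on log2 of hours, and 0 to 2 higher when an experiment was left out, the 2 without experiment 3. The steps between times called 0 under every alternative run.

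The slope difference of experiments 3 and 2 had 514 higher and 357 lower after quantile normalization, 791 and 126 with a common median, 137 and 11 with no filter, 115 and 9 at 100 on all 10 arrays, and 34 lower with trend and robust. Leaving out 1 of the 8 arrays, an alternative chosen after seeing the data, gave 0 to 1784 higher and 0 to 187 lower. Steps and slope differences have no fit without an experiment, since only 2 experiments hold these times. All 10 genes named for the slope difference kept its sign under every alternative, and each was lost under at least 1.

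Of 102 genes named for 168 hr against the first time 21 changed sign under an alternative, 19 of them only when an experiment or array was left out. Over the fits without 1 experiment the log2 changes ran from -0.094 to 0.77 for srp, -0.062 to 0.43 for ush, -0.029 to 0.14 for COX5A, -1.14 to 1.17 for ImpL3, -1.08 to 0.61 for Thor, -0.94 to 0.22 for AsnS, -0.15 to 1.62 for zfh1, -0.28 to 0.57 for DnaJ-1, -0.16 to 0.26 for Hsf, -0.030 to 1.04 for kay, -0.17 to 0.83 for slpr, -0.42 to 1.10 for puc, -0.0084 to 0.75 for CecB, -3.24 to 0.94 for Hsp26, -2.78 to 1.43 for Hsp27, -1.65 to 0.92 for Hsp68, -0.14 to 1.31 for bnl, -0.17 to 0.78 for sima, -0.81 to 1.30 for scyl, -0.087 to 1.28 for S6k and -0.29 to 0.77 for Prosalpha6T. Without the 72 hr array of experiment 3, also chosen after seeing the data, the change was -0.045 for srp, -0.026 for ush, -0.16 for DnaJ-1, -0.084 for slpr, -0.25 for puc, -0.044 for sima, -0.33 for scyl and -0.11 for Prosalpha6T, and after quantile normalization -0.042 for COX5A and -0.083 for DnaJ-1. The causes were not tested. Signals under 100 were given no fold, the 3 pairs have different first times, and 1 array stands for each time in an experiment.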

Other observations

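One array of untransfected S2 cells at 48 hr, in experiment 1, lies outside the GFP courses and has no replicate. Its log2 signals had a Pearson r of 0.989 over probesets with those of the GFP array at 48 hr of experiment 1, and 18 of 9252 probesets were more than 2-fold higher on it and 41 more than 2-fold lower. The heat shock genes were below the GFP array there: Hsp26 read 3519 untransfected and 11927 with GFP RNA, Hsp27 1320 and 7976, Hsp68 5634 and 10485, and DnaJ-1 6849 and 9796. These untransfected values fell between those of the 48 and 168 hr GFP arrays of the experiment. AsnS read 1002 against 2796, scyl 368 against 1086 and Thor 1313 against 2029. LManII and Idgf2, among the genes higher late in all 3 experiments, read 1096 against 442 and 2212 against 1081 at 48 hr, above the GFP array of the same hour, and Bdp1, at 24.3 on the GFP array, read 600.4. For Glyp the untransfected array gave 284 against 195, and for Pfk 260 against 171.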
